A study of Homo sapiens with 12 samples.

Results

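Long intergenic noncoding RNAs (lincRNAs) are transcripts from between protein-coding genes that are not read into protein. The 307 described here were chosen by their measured levels: they are the rows that the deposited table annotates as lincRNA and that averaged 1 FPKM or more (fragment counts scaled by gene length and library depth) over the 3 libraries of at least 1 group. They are 307 of 7629 lincRNAs and of 58735 genes in the table, and 3276 of the lincRNAs were above 0 in any library. Because measured levels chose the members, a level of 1 FPKM in some group is not a result. Just inside it were AC093297.2, AL162413.1 and AC005838.2, with highest group means of 1.001, 1.005 and 1.009 FPKM, and just outside were LINC02539, AC135178.5 and OSMR-AS1, at 0.9996, 0.997 and 0.996 FPKM.

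RNA was sequenced from HaCaT cells, an established line of human keratinocytes that divides without limit. There were 4 groups with 3 libraries each. The groups were cells given siRNA against PHGDH and a treatment named Mix in the labels (PHGDH-siRNA+Mix), the same siRNA without Mix (PHGDH-siRNA), control siRNA with Mix (Control-siRNA+Mix) and control siRNA without Mix (Control-siRNA). Mix lasted 24 h, and all cells were grown in DMEM with fetal bovine serum. The sources used here do not give the contents of Mix. They also do not say if replicates were grown as separate cultures, and the spread behind each p-value may therefore be technical.

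Some lincRNAs build nuclear bodies, as NEAT1 does for paraspeckles. Others carry microRNAs or small nucleolar RNAs that are cut from their introns or exons, and many lie beside a protein-coding gene and share its regulatory DNA. Most are made at low levels and differ widely between cell types. PHGDH, the siRNA target, encodes phosphoglycerate dehydrogenase, the first enzyme of serine synthesis from a glycolytic intermediate.

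Libraries held 16403845 to 20901128 reads, as recovered from FPKM and gene length, and the 307 lincRNAs took 0.222% to 0.376% of them, with the highest share in replicate 2 of PHGDH-siRNA+Mix. PHGDH stood at 19.1, 13.3 and 11.5 FPKM in PHGDH-siRNA+Mix, against 31.9, 31.2 and 26.6 FPKM in Control-siRNA+Mix. Without Mix it stood at 23.7, 20.1 and 16.9 FPKM in PHGDH-siRNA, against 36.5, 56.2 and 45.8 FPKM in Control-siRNA. Neither pair of groups overlapped, while limma over all genes gave adjusted p = 0.200 with Mix and adjusted p = 0.128 without. All 7 keratinocyte markers (among them KRT5, KRT14 and TP63) were at 1 FPKM or more in all 12 libraries. Their summed level was 4490 to 7630 FPKM in PHGDH-siRNA+Mix and 2270 to 6620 in PHGDH-siRNA, and 4310 to 4700 in Control-siRNA+Mix and 1800 to 2730 in Control-siRNA. No fibroblast, melanocyte, leukocyte or endothelial marker reached 1 FPKM in every library, COL1A1, COL3A1 and CD14 did so in some, and the summed level of none of these 4 lists passed 2.93 FPKM. The melanocyte gene TYR, the leukocyte gene PTPRC and the endothelial gene KDR were at 0 in all 12 libraries. The 6 fibroblast markers summed to 1.16 to 1.46 FPKM in PHGDH-siRNA+Mix and 1.52 to 1.90 in PHGDH-siRNA, and to 0.565 to 0.816 in Control-siRNA+Mix and 1.61 to 2.01 in Control-siRNA. The 5 endothelial markers summed to 0.153 to 0.394 FPKM in PHGDH-siRNA+Mix and 0.737 to 0.927 in PHGDH-siRNA, and to 0.176 to 0.316 in Control-siRNA+Mix and 0.681 to 0.934 in Control-siRNA. The 6 leukocyte markers summed to 0.457 to 2.04 FPKM in PHGDH-siRNA+Mix and 0.468 to 2.87 in PHGDH-siRNA, and to 2.17 to 2.93 in Control-siRNA+Mix and 1.57 to 1.99 in Control-siRNA. The 5 melanocyte markers summed to 0.579 to 0.785 FPKM in PHGDH-siRNA+Mix and 0.647 to 0.797 in PHGDH-siRNA, and to 0.420 to 0.573 in Control-siRNA+Mix and 0.586 to 0.768 in Control-siRNA. The part of these markers in the changes below was not tested, and in bulk RNA fewer cells of a type and less RNA per cell cannot be told apart.

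Of the 307 lincRNAs, 14 span a microRNA gene of the GENCODE annotation on their own strand and 10 a small nucleolar RNA gene. Mature sequences are shown for the hosts to which the results return, from RefSeq on GRCh38.p14, 5′ to 3′, with the seed (bases 2 to 8) in capitals. The seed pairs with target messages and defines a microRNA family. They are miR-22-3p in MIR22HG (chr17:1713914-1713935, minus strand), miR-146a-5p in MIR3142HG (chr5:160485372-160485393, plus strand), miR-210-3p in MIR210HG (chr11:568112-568133, minus strand), and miR-221-3p (chrX:45746180-45746202, minus strand) and miR-222-3p (chrX:45747036-45747056, minus strand) in MIR222HG.
hsa-miR-22-3p: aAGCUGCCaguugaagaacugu
hsa-miR-146a-5p: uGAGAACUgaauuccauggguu
hsa-miR-210-3p: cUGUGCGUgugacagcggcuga
hsa-miR-221-3p: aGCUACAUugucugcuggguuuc
hsa-miR-222-3p: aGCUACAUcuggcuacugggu
The last pair share 1 seed, and the other 3 seeds differ from it and from each other. The table holds levels of the host genes only, and mature microRNAs were not measured here.

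Levels were low and uneven. The median lincRNA averaged 1.54 FPKM over the 12 libraries, which was 31 reads per library, and 19 of the 307 averaged 10 FPKM or more. The 12 highest held 38.7% of the summed FPKM of the 307. LINC01503, a keratinocyte and squamous-cell lincRNA, led with a mean of 61.6 FPKM, followed by NORAD, a cytoplasmic RNA that binds Pumilio proteins, at 58.6 FPKM, and AC245041.1 at 48.7 FPKM. UCA1, SNHG8 and LINC01127 came next at 42.3, 40.3 and 30.6 FPKM. The LINC01127 mean rests on replicate 2 of PHGDH-siRNA+Mix, and over the other 11 libraries it was 7.28 FPKM, rank 28. IGFL2-AS1, AL161431.1, SNHG19, AL035661.1, AL365356.5 and LINC00958 followed at 30.4 to 18 FPKM. The spread between libraries was wide for these low levels. The coefficient of variation within groups had a median of 33% over the 307 lincRNAs, beside 16.6% over the 10405 protein-coding genes at 1 FPKM or more in at least 1 group, whose median level was 6.84 FPKM.

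**Figure D1:**
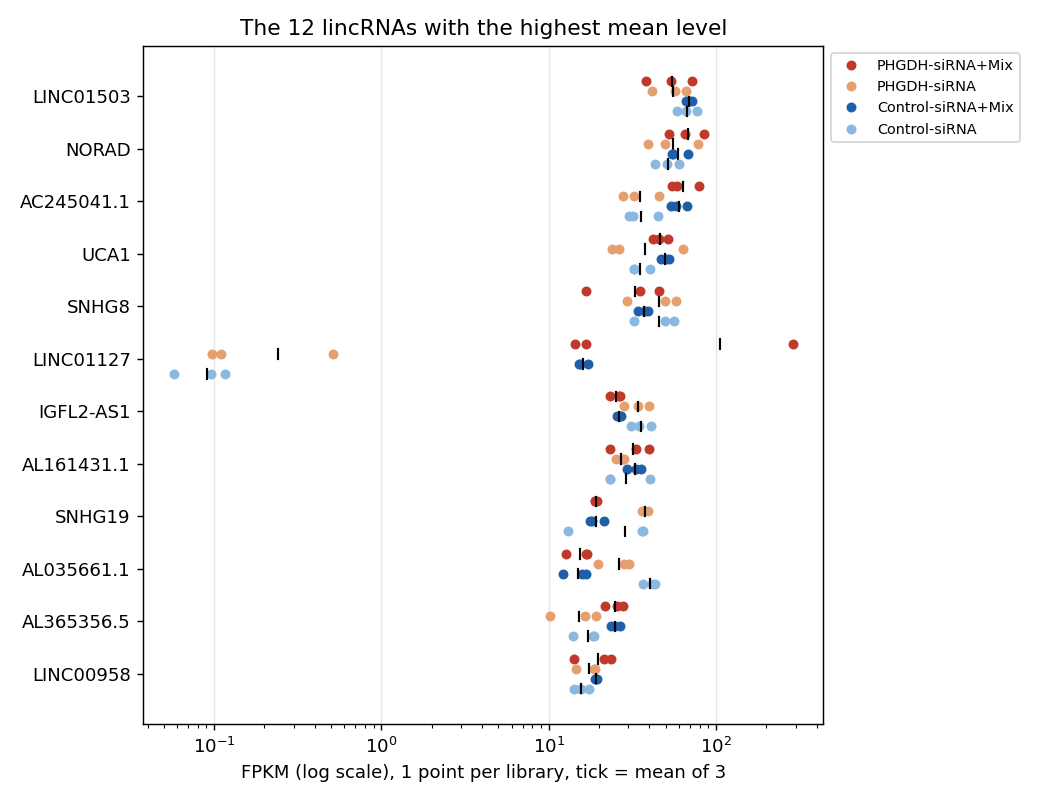
FPKM on a log axis of the 12 lincRNAs with the highest mean, 1 point per library, with a tick at the mean of each group of 3. LINC01127 has 287 FPKM in replicate 2 of PHGDH-siRNA+Mix, on which its place among the 12 rests, with all 6 Mix libraries at 14.4 FPKM or more and all 6 libraries without Mix at 0.516 FPKM or less.

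Of the 307, 159 reached 1 FPKM in all 4 groups, 27 in 3, 61 in 2 and 60 in 1. There were 54 that did so only with Mix and 59 only without it, while 23 did so only in PHGDH-siRNA groups and 41 only in Control-siRNA groups. These patterns come from the level that chose the members and are given as a description.

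The lincRNAs lay close to protein-coding genes. The median gap to the nearest protein-coding gene body was 4289 bases, against 39206.5 bases for the other 7322 lincRNAs of the table, and 88.3% had one within 100000 bases, against 66.4%. The start of 78 of them (25.4%) lay within 2000 bases of a protein-coding start on the opposite strand, against 7.46% of the other lincRNAs. The 307 were also longer, with a median of 1055 exonic bases against 752. Exonic bases were shared with another gene by 72 of them, 2 for 50% or more of their length, and without a stated strand setting reads of such partners cannot be told apart. CYTOR and MIR4435-2HG are near-identical copies, both of which carry hsa-miR-4435, and the split of reads between them is uncertain. CYTOR averaged 1.78 FPKM and MIR4435-2HG 1.83 FPKM, and neither was called with Mix.

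Mix in PHGDH-siRNA cells was followed by a called change (limma, adjusted p under 0.05 over 14577 genes) in 49 of the 307 lincRNAs, 27 higher and 22 lower. This was 16%, beside 8.86% of all genes tested, 5.22% of them higher and 3.64% lower. Mix in Control-siRNA cells gave 54 calls, 34 higher and 20 lower, which was 17.6% beside 9.54% of all genes, 5.62% higher and 3.92% lower. The rule that chose the members raises these shares, because a lincRNA that reached 1 FPKM in only some groups had to differ between them. Among the 159 lincRNAs at 1 FPKM or more in all 4 groups, 14 (8.81%) were called in PHGDH-siRNA cells, beside 9.32% of the 10413 such genes. In Control-siRNA cells it was likewise 14 (8.81%), beside 9.79%. The median change of the 307 was -0.02 in PHGDH-siRNA cells and -0.03 in Control-siRNA cells on the log2(FPKM + 1) scale, beside 0.00 over all genes in both. Groups with and without Mix did not overlap for 98 lincRNAs (31.9%) in PHGDH-siRNA cells, beside 21.5% of all genes, and for 131 (42.7%) in Control-siRNA cells, beside 37.8%.

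Replicate numbers of the PHGDH-siRNA arms deviated together, and with the replicate number as a block in those arms 86 lincRNAs were called with Mix, 42 higher and 44 lower, beside 27.1% of all genes. Of the 49 calls, 47 were among them. Without replicate 2 of both PHGDH-siRNA arms, which stood apart as described further on, 76 were called in PHGDH-siRNA cells and 94 in Control-siRNA cells, beside 15.1% and 21.0% of all genes. All 54 Control-siRNA calls and 45 of the 49 PHGDH-siRNA calls were kept in that fit.

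The same 34 lincRNAs were called in both arms, 22 higher and 12 lower, with none in opposite directions. They were 69.4% of the PHGDH-siRNA calls and 63.0% of the Control-siRNA calls. Of the 15 called only in PHGDH-siRNA cells, 14 had the same sign in Control-siRNA cells, and all 20 called only in Control-siRNA cells had the same sign in PHGDH-siRNA cells. The 22 higher ones changed by 0.58 to 5.13 in PHGDH-siRNA cells and by 0.56 to 3.96 in Control-siRNA cells on the log2(FPKM + 1) scale, and 17 of them averaged under 1 FPKM in both groups without Mix. The 12 lower ones changed by -1.93 to -0.72 in PHGDH-siRNA cells and by -2.61 to -0.72 in Control-siRNA cells, and 7 of them averaged under 1 FPKM in both Mix groups. To be chosen at all, those 17 had to be higher with Mix, and those 7 lower, in at least 1 arm. Their direction there comes from the rule and is not a result. LINC01127, AL356234.3, LINC02310 and AC061992.1, described below, are among those 17. AC068580.2 and LINC01224 are among those 7. MIR3142HG, under 1 FPKM in both groups without Mix, and LINC01394, under 1 FPKM in both with Mix, share this limit. The share of all genes called in both arms is not given here.

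**Figure D2:**
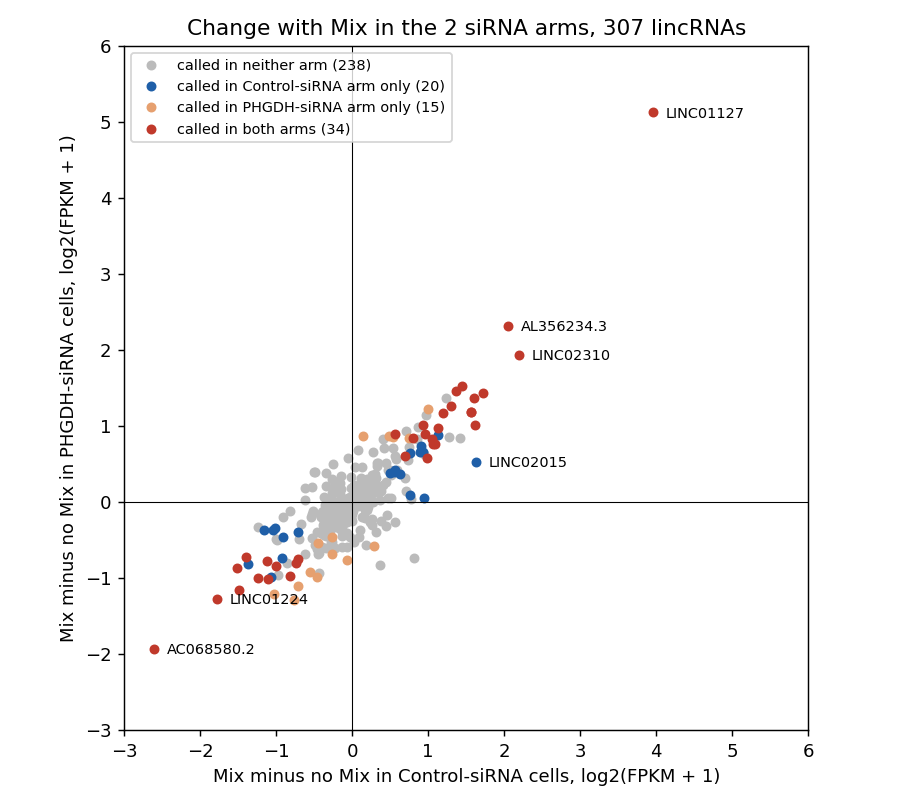
Change with Mix on the log2(FPKM + 1) scale in PHGDH-siRNA cells (vertical) against Control-siRNA cells (horizontal), 1 point per lincRNA, coloured by the arms in which it was called. The 34 called in both arms lie in the upper right and lower left, with LINC01127 farthest out at 5.13 and 3.96.

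LINC01127 had the largest change of all 307 on the log2(FPKM + 1) scale in both arms. Under voom on the recovered reads LINC02015, at 0 reads in every Control-siRNA library, had 7.85 in Control-siRNA cells and LINC01127 had 7.40. LINC01127 lies at chr2:101962056-101987167 on the plus strand of hg38, 4677 bases from IL1R2, which encodes a decoy receptor that binds interleukin-1 without signalling. LINC01127 had 16.7, 287 and 14.4 FPKM in PHGDH-siRNA+Mix, against 0.110, 0.516 and 0.0977 FPKM in PHGDH-siRNA. It had 15.4, 15.2 and 17.3 FPKM in Control-siRNA+Mix, against 0.0577, 0.117 and 0.0965 FPKM in Control-siRNA. Every Mix library was above every library without Mix, and replicate 2 of PHGDH-siRNA+Mix was far above the other 5 Mix libraries. The log2 change was 5.13 ± 0.84 (SE) in PHGDH-siRNA cells (limma, adjusted p = 0.0036) and 3.96 ± 0.84 in Control-siRNA cells (adjusted p = 0.0142).

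Replicate 2 of PHGDH-siRNA+Mix held 20408 LINC01127 reads, which was 29.7% of the reads of the 307 lincRNAs there, beside 2.08% to 2.46% in the other Mix libraries. It was 18.5 times the mean of replicates 1 and 3, whereas IL1R2 was 1.98 times. IL1R2 itself had 30.5, 56.9 and 26.9 FPKM in PHGDH-siRNA+Mix, against 1.83, 1.58 and 1.47 FPKM in PHGDH-siRNA, and 23.1, 22.1 and 20.9 FPKM in Control-siRNA+Mix, against 0.650, 1.04 and 0.379 FPKM in Control-siRNA. Without replicate 2 of both PHGDH-siRNA arms the LINC01127 change in PHGDH-siRNA cells was 3.90 (adjusted p = 1.5e-07), whereas with only the groups compared in the fit the 5.13 was not called (adjusted p = 0.0953). The Control-siRNA call did not hold under voom on the recovered reads (adjusted p = 0.0634), nor without Control-siRNA replicate 3, Control-siRNA+Mix replicate 1 or Control-siRNA+Mix replicate 3 (adjusted p = 0.0525 to 0.0575).

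AL356234.3, a clone-named lincRNA at chr6:137693068-137700415 on the plus strand of hg38, was near 0 without Mix in either arm. It had 3.90, 4.89 and 4.34 FPKM in PHGDH-siRNA+Mix, against 0, 0.0449 and 0.185 FPKM in PHGDH-siRNA, and 3.12, 3.24 and 3.26 FPKM in Control-siRNA+Mix, against 0, 0.0482 and 0 FPKM in Control-siRNA. In reads these were 88, 105 and 93 against 0, 1 and 4, and 63, 69 and 72 against 0, 1 and 0. The groups did not overlap in either arm, and the log2 change was 2.32 ± 0.11 in PHGDH-siRNA cells (adjusted p = 5.43e-07, limma) and 2.05 ± 0.11 in Control-siRNA cells (adjusted p = 1.03e-06). Both groups without Mix averaged under 1 FPKM, so the rule fixed this direction in at least 1 arm.

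LINC02310 (chr14:51392128-51397135, minus strand) had 7.02, 0.945 and 6.14 FPKM in PHGDH-siRNA+Mix, against 0.422, 0.0911 and 0.281 FPKM in PHGDH-siRNA. In the other arm it had 5.02, 4.38 and 6.24 FPKM in Control-siRNA+Mix, against 0.194, 0.391 and 0.463 FPKM in Control-siRNA. Replicate 2 was the lowest Mix library of LINC02310, yet still above every library without Mix. The log2 change was 1.94 ± 0.42 in PHGDH-siRNA cells (limma, adjusted p = 0.0171) and 2.20 ± 0.42 in Control-siRNA cells (adjusted p = 0.00796). Without replicate 2 of both PHGDH-siRNA arms the first was 2.49. That call was lost in 5 of 21 alternatives, namely without PHGDH-siRNA+Mix replicate 1 or 3, without PHGDH-siRNA replicate 3, with no filter and with only the groups compared (highest adjusted p = 0.165).

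Further lincRNAs from low levels were higher in both arms. FLJ22447 changed by 1.36 ± 0.20 (adjusted p = 0.00184, limma) in PHGDH-siRNA cells and by 1.61 ± 0.20 in Control-siRNA cells. AC090023.2 changed by 1.43 ± 0.21 and 1.72 ± 0.21, and AC078820.1 by 1.18 ± 0.19 and 1.56 ± 0.19, in the same order. AC002401.4 changed by 1.53 ± 0.38 in PHGDH-siRNA cells, a call lost in 11 of 21 alternatives (highest adjusted p = 0.213), and U62317.1 by 1.01 ± 0.26 (adjusted p = 0.0368), with 42.7% of its exonic bases shared with another gene. LINC02015 was called in Control-siRNA cells, where it had 91, 136 and 123 reads with Mix and 0 in all 3 libraries without. Set against a floor of 3 reads per library, that was at least 38.7-fold higher. The rule chose LINC02015 through Control-siRNA+Mix alone, so this direction was fixed and is not a result. In PHGDH-siRNA cells LINC02015 had 44, 1 and 46 reads with Mix and 4, 0 and 0 without (adjusted p = 0.146).

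The host of miR-22 rose with Mix in both arms. MIR22HG had 6.53, 8.96 and 7.73 FPKM in PHGDH-siRNA+Mix, against 2.20, 1.92 and 2.33 FPKM in PHGDH-siRNA, and 7.13, 6.30 and 6.77 FPKM in Control-siRNA+Mix, against 2.40, 1.48 and 2.20 FPKM in Control-siRNA. The group means were 7.74 ± 1.21 against 2.15 ± 0.212 FPKM, and 6.74 ± 0.415 against 2.02 ± 0.482 FPKM (SD, 3 libraries each). The log2 change was 1.46 ± 0.15 in PHGDH-siRNA cells (adjusted p = 0.000144, limma) and 1.37 ± 0.15 in Control-siRNA cells (adjusted p = 0.000164).

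MIR3142HG, the host of miR-146a, which restrains NF-kappaB signalling, had 0.433, 1.82 and 1.05 FPKM in PHGDH-siRNA+Mix, against 0.203, 0.395 and 0.293 FPKM in PHGDH-siRNA. It had 0.990, 0.984 and 1.30 FPKM in Control-siRNA+Mix, against 0.187, 0.282 and 0.223 FPKM in Control-siRNA. It was called in Control-siRNA cells (0.76 ± 0.20, limma, adjusted p = 0.0399), while in PHGDH-siRNA cells the change was 0.64 ± 0.20 (adjusted p = 0.0821). The Control-siRNA call did not hold in 10 of 20 alternatives, among them those without any 1 of the 6 libraries of that arm (highest adjusted p = 0.154).

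MIR210HG carries miR-210, a microRNA known from the response to low oxygen. It had 5.16, 13.8 and 7.13 FPKM in PHGDH-siRNA+Mix, against 1.61, 11.6 and 2.75 FPKM in PHGDH-siRNA, and 8.68, 8.56 and 9.75 FPKM in Control-siRNA+Mix, against 1.98, 4.17 and 3.56 FPKM in Control-siRNA. The Control-siRNA groups did not overlap and the PHGDH-siRNA groups did, with replicate 2 of PHGDH-siRNA above replicates 1 and 3 of PHGDH-siRNA+Mix, and neither change passed the test (adjusted p = 0.361 and 0.159, limma). With the replicate block in the PHGDH-siRNA arms only, the first was called (adjusted p = 0.0484). MIR222HG, the host of the pair with 1 shared seed, changed by 0.10 ± 0.23 and 0.15 ± 0.23 in PHGDH-siRNA and Control-siRNA cells, and MIR193BHG by 0.32 ± 0.12 and 0.26 ± 0.12, none of them called. In all, 4 of the 14 microRNA hosts (28.6%) were called in at least 1 arm, namely MIR22HG, MIR3142HG, NEAT1 and AC100858.3, beside 22.5% of all 307 lincRNAs.

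NEAT1, the scaffold of paraspeckles, had 11.8, 17.7 and 12.9 FPKM in PHGDH-siRNA+Mix, against 6.32, 12.9 and 7.24 FPKM in PHGDH-siRNA. It had 13.3, 13.1 and 13.9 FPKM in Control-siRNA+Mix, against 7.75, 6.33 and 6.34 FPKM in Control-siRNA. The Control-siRNA groups were apart and the PHGDH-siRNA groups overlapped. NEAT1 was called in Control-siRNA cells (0.89 ± 0.22, limma, adjusted p = 0.0297), and its change in PHGDH-siRNA cells was 0.66 ± 0.22 (adjusted p = 0.1). The call did not hold without replicate 2 or 3 of Control-siRNA or without any 1 of the 3 libraries of Control-siRNA+Mix (highest adjusted p = 0.11). With the replicate block in the PHGDH-siRNA arms only, NEAT1 was called there (adjusted p = 0.0144). The table has 1 row for NEAT1, so its short and long forms were not separated. Of 14 genes for paraspeckle proteins, 0 were higher and 1, SMARCA4, was lower in PHGDH-siRNA cells, and 0 were called in Control-siRNA cells. Their median change was -0.21 in PHGDH-siRNA cells and -0.09 in Control-siRNA cells. Of 18 genes of the nuclear RNA exosome and its adaptors, which degrade many noncoding RNAs, 1 was higher and 0 lower in each arm. It was MPHOSPH6, which changed by 0.71 in PHGDH-siRNA cells and by 0.95 in Control-siRNA cells. Over all genes tested, 8.86% were called in PHGDH-siRNA cells and 9.54% in Control-siRNA cells. These list counts are a description and not a result about the lists. Neither list had a called gene in the PHGDH siRNA comparisons or the interaction. Of all genes, 0.0206% were called there with Mix, 0.0412% without and 0.0% for the interaction.

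MALAT1, an RNA of nuclear speckles, and NORAD were not called in either arm. MALAT1 changed by 0.43 ± 0.38 in PHGDH-siRNA cells and 0.58 ± 0.38 in Control-siRNA cells, and NORAD by 0.31 ± 0.25 and 0.20 ± 0.25. LINC01503 changed by -0.04 ± 0.23 and 0.04 ± 0.23, and UCA1 by 0.43 ± 0.29 and 0.50 ± 0.29. CRNDE, known from colorectal tumours, changed by -0.28 ± 0.12 and -0.16 ± 0.12 and was not called. AC245041.1 had 54.4, 78.8 and 58.6 FPKM in PHGDH-siRNA+Mix, against 27.6, 45.9 and 32.5 FPKM in PHGDH-siRNA, and 53.9, 58.1 and 67.3 FPKM in Control-siRNA+Mix, against 45.1, 30.3 and 31.8 FPKM in Control-siRNA. Its groups did not overlap in either arm. Of the 12 highest lincRNAs, AC245041.1 was called only in PHGDH-siRNA cells (0.85 ± 0.22, limma, adjusted p = 0.0356) and had 0.74 ± 0.22 in Control-siRNA cells (adjusted p = 0.0589). LINC01127 and AL035661.1 were called in both arms, and the other 9 in neither, of which SNHG8, SNHG19 and AL365356.5 (adjusted p = 0.0494) were called in PHGDH-siRNA cells with the replicate block. The AC245041.1 call did not hold in 11 of 21 alternatives.

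LINC01224 was lower with Mix in both arms. It had 0.609, 1.2 and 0.853 FPKM in PHGDH-siRNA+Mix, against 3.92, 3.53 and 3.14 FPKM in PHGDH-siRNA, and 0.679, 0.941 and 0.924 FPKM in Control-siRNA+Mix, against 5.85, 5.07 and 5.11 FPKM in Control-siRNA. It fell by 1.27 ± 0.14 in PHGDH-siRNA cells (adjusted p = 0.000226, limma) and by 1.78 ± 0.14 in Control-siRNA cells (adjusted p = 1.56e-05). AC068580.2 (chr11:1776930-1778388, minus strand) had 0, 0 and 0 reads in PHGDH-siRNA+Mix against 19, 10 and 25 in PHGDH-siRNA, and 0, 0 and 1 in Control-siRNA+Mix against 28, 48 and 27 in Control-siRNA. Against a floor of 3 reads per library it was at least 6.29-fold lower with Mix in PHGDH-siRNA cells. Both Mix groups of AC068580.2 and of LINC01224 averaged under 1 FPKM, so the rule fixed a fall in at least 1 arm.

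TP53TG1, named as a target of p53, had 3.82, 4.97 and 4.44 FPKM in PHGDH-siRNA+Mix, against 11.6, 7.23 and 11.2 FPKM in PHGDH-siRNA. It had 5.11, 6.97 and 5.08 FPKM in Control-siRNA+Mix, against 10.3, 15.6 and 14.5 FPKM in Control-siRNA. No Mix library of TP53TG1 reached the level of a library without Mix in its arm, and it fell by 1.00 ± 0.20 in PHGDH-siRNA cells (limma, adjusted p = 0.0116) and by 1.10 ± 0.20 in Control-siRNA cells (adjusted p = 0.0061). The first of these was not called when PHGDH-siRNA replicate 3 was left out or with only the groups compared (highest adjusted p = 0.0808). AL035661.1, among the 12 highest, had 16.9, 12.6 and 16.7 FPKM in PHGDH-siRNA+Mix, against 30.4, 19.8 and 28.3 FPKM in PHGDH-siRNA, and 15.8, 16.8 and 12.1 FPKM in Control-siRNA+Mix, against 41.6, 36.7 and 42.9 FPKM in Control-siRNA. The groups were apart in both arms. It fell by 0.72 ± 0.18 and 1.39 ± 0.18 in the same order, the first of which did not hold in 10 of 21 alternatives, among them those without replicate 1, 2 or 3 of PHGDH-siRNA+Mix. AL158209.1, AC022034.1 and AC069360.1 were also lower in both arms, with changes of -0.99, -1.15 and -0.87 in PHGDH-siRNA cells and -1.24, -1.49 and -1.51 in Control-siRNA cells. AC100860.1 was called lower in Control-siRNA cells only (-1.15 ± 0.15), and AL365356.3, LINC02031 and AL596094.1 in PHGDH-siRNA cells only (-1.21, -1.29 and -1.10), with the difference between arms called for none of them.

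Among the 10 hosts of small nucleolar RNAs, which guide chemical changes of ribosomal RNA, SNHG4 was called lower in both arms and AC078923.1 was called higher in Control-siRNA cells (1.13 ± 0.25, limma, adjusted p = 0.0181). These 2 are 20% of the 10, beside 22.5% of all 307 lincRNAs called in at least 1 arm. SNHG4 had 2.38, 2.65 and 3.13 FPKM in PHGDH-siRNA+Mix, against 4.64, 6.10 and 5.82 FPKM in PHGDH-siRNA, and 2.85, 2.93 and 2.82 FPKM in Control-siRNA+Mix, against 7.13, 4.19 and 5.31 FPKM in Control-siRNA. It fell by 0.81 ± 0.16 in PHGDH-siRNA cells (limma, adjusted p = 0.012) and by 0.73 ± 0.16 in Control-siRNA cells (adjusted p = 0.0175). The first call did not hold without PHGDH-siRNA replicate 3 or with only the groups compared (limma, highest adjusted p = 0.0725). The second did not hold without Control-siRNA replicate 3 or any 1 library of Control-siRNA+Mix (highest adjusted p = 0.0706). Of the exonic bases of SNHG4, 16.6% are shared with another gene. SNHG19 had 19.4, 19 and 19 FPKM in PHGDH-siRNA+Mix, against 36.9, 39.3 and 36.2 FPKM in PHGDH-siRNA, and 17.6, 21.5 and 18.1 FPKM in Control-siRNA+Mix, against 13.1, 36.6 and 36.4 FPKM in Control-siRNA. Replicate 1 of Control-siRNA was the one library without Mix at the lower level, and neither SNHG19 change was called (adjusted p = 0.0869 and 0.464). SNHG8, SNHG9, SNHG15, SNHG18, SNHG25 and EPB41L4A-AS1 were not called in either arm. With the replicate block in the PHGDH-siRNA arms only, SNHG8, SNHG9, SNHG18, SNHG19 and SNHG25 were called lower in PHGDH-siRNA cells. Their changes were -0.52, -0.59, -0.49, -0.94 and -0.83, with adjusted p = 0.0279, 0.0309, 0.0431, 0.00454 and 0.00759 (limma). That fit called 86 of the 307 lincRNAs and 27.1% of all genes. SNHG9 had only 7, 5 and 10 reads in PHGDH-siRNA+Mix against 18, 10 and 19 in PHGDH-siRNA, and SNHG25 had 6, 2 and 8 against 14, 7 and 18.

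**Figure D3:**
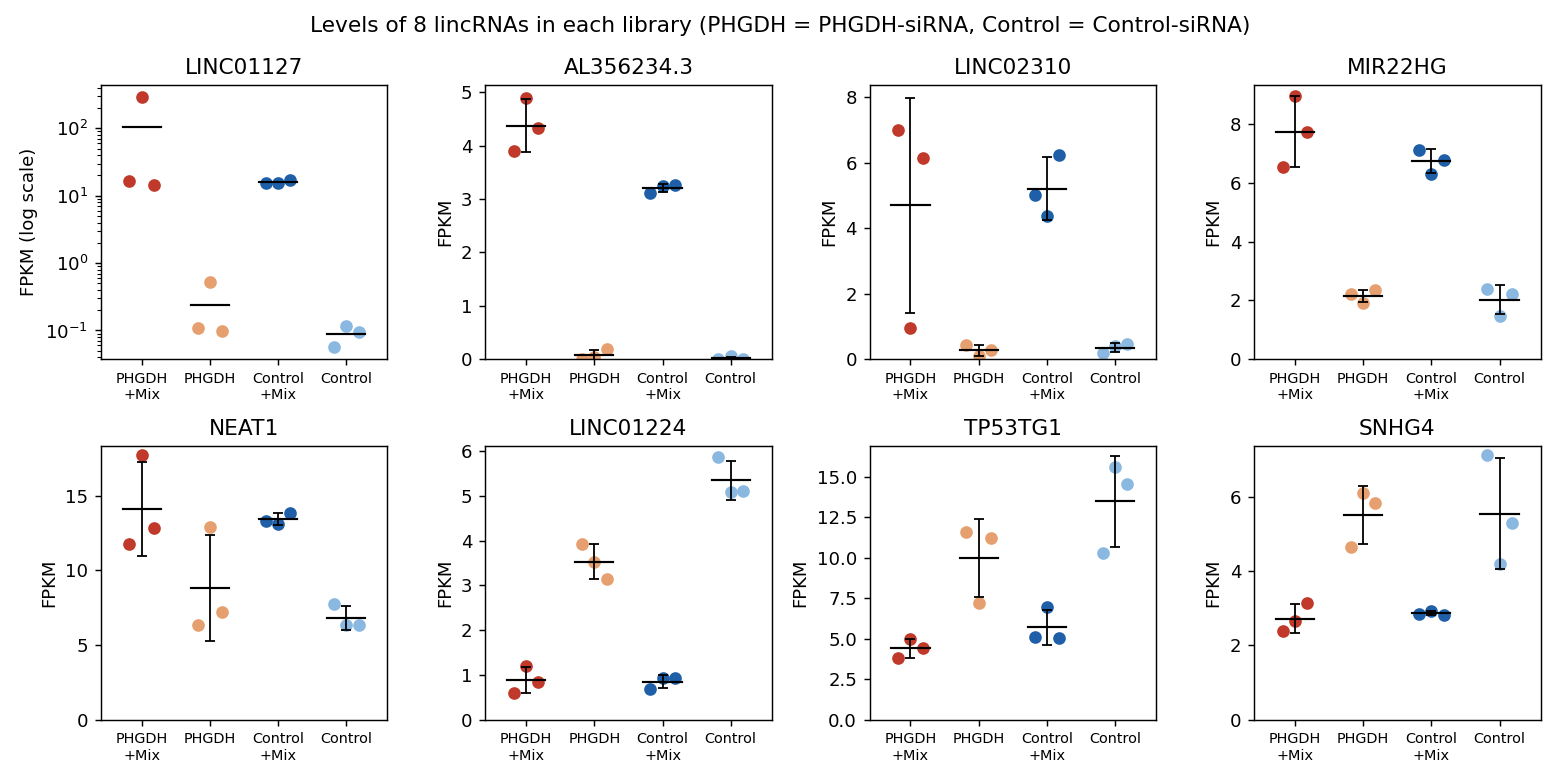
FPKM of 8 lincRNAs in each library, with the mean of 3 as a line and the SD as a bar (no SD for LINC01127, which is on a log axis). LINC01127, AL356234.3, LINC02310 and MIR22HG are higher in every Mix library of both arms than in any library without Mix, and LINC01224, TP53TG1 and SNHG4 are lower within each arm, while NEAT1 overlaps in the PHGDH-siRNA arm.

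The nearest protein-coding gene often changed the same way as a lincRNA that rose. Among the pairs given below, those of MYOSLID, AC007879.2, AL356234.2, PICART1, ITGB1-DT and AC103718.1 were chosen after their values were seen. Of the 27 lincRNAs called higher in PHGDH-siRNA cells, 24 had a tested nearest gene, of which 12 (50%) were called higher and 0 lower. Among lincRNAs that were not called, 10 of 207 (4.83%) had a neighbour called higher. In Control-siRNA cells 14 of 28 (50%) were called higher and 2 lower, against 13 of 204 (6.37%) higher among those not called. Because pairs can share a neighbour, these were 10 and 12 distinct genes. Leaving out lincRNAs that share exonic bases with any gene, the counts were 9 of 18 in PHGDH-siRNA cells and 12 of 22 in Control-siRNA cells. Of the lincRNAs that fell, 1 of 18 (5.56%) in PHGDH-siRNA cells and 3 of 17 (17.6%) in Control-siRNA cells had a neighbour called lower. Among lincRNAs not called these shares were 6 of 207 (2.9%) and 3 of 204 (1.47%). The lincRNAs that fell had 0 neighbours called higher in both arms. Over the 249 lincRNAs with a tested neighbour, which share libraries and depth with it, the changes of the pair had Pearson's r of 0.52 in both arms and Spearman's rho of 0.32 in PHGDH-siRNA cells and 0.40 in Control-siRNA cells.

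Some of these neighbours are feedback inhibitors of cytokine signalling. AC061992.1 starts 376 bases from the start of SOCS3, an inhibitor of JAK-STAT signalling read from the opposite strand. AC061992.1 had 1.99, 1.91 and 1.87 FPKM in PHGDH-siRNA+Mix, against 0.356, 0.263 and 0.0451 FPKM in PHGDH-siRNA, and 1.88, 2.01 and 1.68 FPKM in Control-siRNA+Mix, against 0.327, 0.0942 and 0.0891 FPKM in Control-siRNA. It changed by 1.27 ± 0.13 in PHGDH-siRNA cells (adjusted p = 0.000166, limma) and 1.29 ± 0.13 in Control-siRNA cells (adjusted p = 0.000101). Its groups without Mix both averaged under 1 FPKM, so the rule fixed this direction in at least 1 arm. SOCS3 changed by 2.76 in PHGDH-siRNA cells (adjusted p = 0.000137) and by 3.56 in Control-siRNA cells (adjusted p = 1.54e-05). AL356234.3 and AL356234.2, which overlap on the same strand, lie 166773 and 103204 bases from TNFAIP3, the gene of the NF-kappaB inhibitor A20. TNFAIP3 changed by 2.44 in PHGDH-siRNA cells (limma, adjusted p = 0.000414) and 3.35 in Control-siRNA cells (adjusted p = 3.78e-05), and AL356234.2 by 0.97 and 1.13.

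Other pairs involved adhesion and transcription genes. MYOSLID and AC007879.2 lie 72383 and 59682 bases from KLF7, a Krüppel-like transcription factor. MYOSLID had 25.6, 23.3 and 19.5 FPKM in PHGDH-siRNA+Mix, against 8.28, 10.4 and 9.71 FPKM in PHGDH-siRNA, and 18.6, 19.1 and 19.1 FPKM in Control-siRNA+Mix, against 5.25, 6.09 and 6.02 FPKM in Control-siRNA. Its groups were apart in both arms, and 32.5% of its exonic bases are shared with another gene. It changed by 1.18 ± 0.12 (adjusted p = 0.000187, limma) and 1.56 ± 0.12 (adjusted p = 1.87e-05), and KLF7 by 1.5 and 1.66. PICART1, 229 bases from ITGA3 in divergent orientation, changed by 0.84 and 0.80, and the integrin gene ITGA3 by 0.72 and 0.74. ITGB1-DT changed by 1.02 and 0.93, and the integrin gene ITGB1, which it overlaps, by 0.91 and 0.79. AC103718.1 changed by 0.90 and 0.95, and GSDMC, a gasdermin gene, by 1.36 and 1.30. All of these changes were called in both arms, and the highest adjusted p among the 4 protein-coding genes was that of ITGB1 in Control-siRNA cells (0.0207).

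Not every pair matched. LINC01394 had 0.125, 0.262 and 0 FPKM in PHGDH-siRNA+Mix, against 1.75, 0 and 1.82 FPKM in PHGDH-siRNA, and 0, 0.395 and 0 FPKM in Control-siRNA+Mix, against 1.75, 1.22 and 2.95 FPKM in Control-siRNA. It and the transcription factor gene FOXQ1, 6950 bases away, were both lower in Control-siRNA cells (-1.37 ± 0.36, limma, adjusted p = 0.0388, and -2.80), a LINC01394 call that did not hold in 12 of 20 alternatives, among them voom and a pseudocount of 0.1. FOXQ1 was also called lower in PHGDH-siRNA cells (-2.41, limma, adjusted p = 0.0177), where LINC01394 was not called. TP53TG1 starts 166 bases from CROT, a peroxisomal carnitine acyltransferase gene, which was called lower in Control-siRNA cells (-0.87) and not in PHGDH-siRNA cells (-0.42, adjusted p = 0.189). Opposite signs were seen for MIR3142HG and PTTG1, the securin gene, which changed by -0.66 and -0.47. They were also seen for AC002401.4 and PDK2, a pyruvate dehydrogenase kinase gene, which changed by -0.51 in PHGDH-siRNA cells (adjusted p = 0.0533) and -0.73 in Control-siRNA cells.

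**Figure D4:**
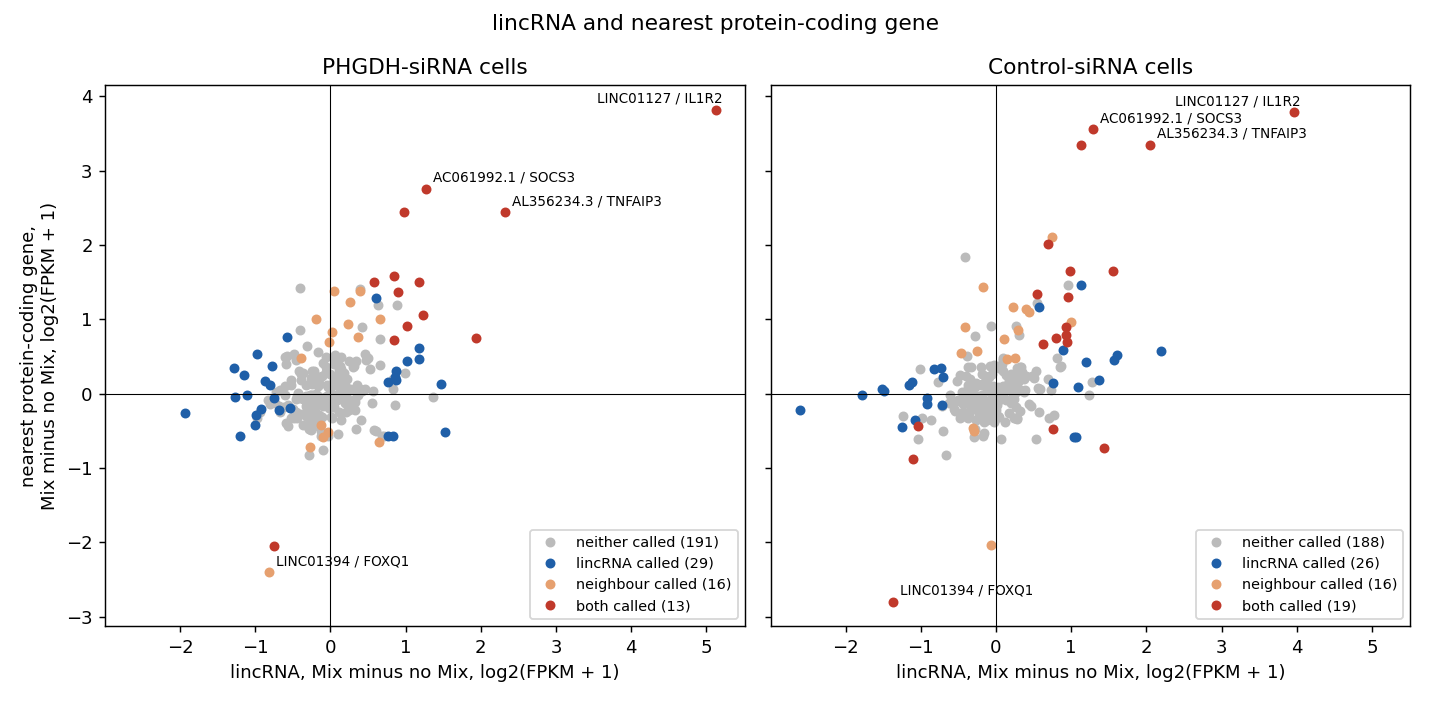
Change with Mix on the log2(FPKM + 1) scale of each lincRNA (horizontal) and its nearest tested protein-coding gene (vertical) in PHGDH-siRNA cells (left) and Control-siRNA cells (right), 249 pairs each. LINC01127 with IL1R2, AC061992.1 with SOCS3 and AL356234.3 with TNFAIP3 lie in the upper right of both panels.

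RefSeq promoters (250 bases before to 50 after a start, GRCh38.p14) matched 85 of the 307 lincRNAs by symbol, with 99 promoters. They were searched on both strands for AP-1 (TGANTCA), NF-kappaB (GGANTTTCC or GGGNNTTCC) and STAT (TTCNNNGAA) motifs, and the matches in MYOSLID did not overlap. AP-1 letters were in 15.2% of these lincRNA promoters and in 7.71% of all 35116 promoters, NF-kappaB letters in 9.09% and 8.11%, and STAT letters in 7.07% and 7.66%. Among the 19 promoters of lincRNAs called in at least 1 arm, AP-1 letters were in 15.8%, NF-kappaB letters in 15.8% and STAT letters in 5.26%. Any of the 3 was in 31.6% of them, beside 26.3% of the 99. Of the 9 lincRNAs called in both arms that had a promoter there, MYOSLID held AP-1 and NF-kappaB letters, LNCAROD AP-1 letters and LINC01537 STAT letters. The rest of the 9 held none. The MYOSLID promoter (chr2:207239561-207239860, plus strand), whose start lies 161 bases inside the table's gene, is shown with the AP-1 and then the NF-kappaB match in capitals. That of LINC02310 (chr14:51397086-51397385, minus strand), without a match, is shown beside it as the one with the largest change.
MYOSLID: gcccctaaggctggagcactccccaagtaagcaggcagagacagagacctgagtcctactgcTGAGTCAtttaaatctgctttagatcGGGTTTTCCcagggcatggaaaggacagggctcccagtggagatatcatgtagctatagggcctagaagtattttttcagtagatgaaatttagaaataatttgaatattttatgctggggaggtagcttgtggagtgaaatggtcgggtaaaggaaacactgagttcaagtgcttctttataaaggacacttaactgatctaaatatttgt
LINC02310: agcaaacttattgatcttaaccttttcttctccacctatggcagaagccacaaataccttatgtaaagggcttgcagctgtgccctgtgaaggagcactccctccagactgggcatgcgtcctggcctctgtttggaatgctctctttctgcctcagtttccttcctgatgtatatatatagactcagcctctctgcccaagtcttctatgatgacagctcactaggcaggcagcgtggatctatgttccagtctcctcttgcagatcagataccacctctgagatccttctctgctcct
A match is a run of letters only, and binding was not measured.

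PHGDH siRNA gave no called lincRNA. The same fit did not call PHGDH itself, whose groups did not overlap. The absence of calls therefore does not show that lincRNAs were unchanged. With Mix, 0 of 307 were called between PHGDH-siRNA+Mix and Control-siRNA+Mix (limma, and 0 by voom), beside 0.0206% of all genes, and 20 lincRNAs (6.51%) had an unadjusted p under 0.05, beside 834 genes in all (5.72%). Without Mix, 0 of 307 were called between PHGDH-siRNA and Control-siRNA (0 by voom), beside 0.0412% of all genes, with 30 lincRNAs (9.77%) under that unadjusted p, beside 935 genes (6.41%). The groups did not overlap for 38 lincRNAs (12.4%) in each of these comparisons, beside 14.3% of genes with Mix and 10.2% without. Without replicate 2 of both PHGDH-siRNA arms, LINC02015 and AC109588.1 were called with Mix, 1 lower and 1 higher, beside 0.309% of all genes, and SNHG25 was called higher without Mix, beside 0.707%. SNHG25 had 3.04, 1.31 and 3.47 FPKM in PHGDH-siRNA, against 0.798, 1.01 and 1.14 FPKM in Control-siRNA, with every PHGDH-siRNA library above every Control-siRNA library. In reads these were only 14, 7 and 18 against 4, 5 and 6. AC109588.1 had 3.83, 0.0414 and 2.74 FPKM in PHGDH-siRNA+Mix, against 1.36, 1.46 and 1.33 FPKM in Control-siRNA+Mix, so that its groups were apart in all libraries except replicate 2 of PHGDH-siRNA+Mix. LINC02015 had 0.753, 0.018 and 0.828 FPKM in PHGDH-siRNA+Mix, against 1.74, 2.46 and 2.15 FPKM in Control-siRNA+Mix, with no overlap. It averaged 1 FPKM or more in Control-siRNA+Mix only. The rule thus chose LINC02015 through the higher of these groups, and the direction of its difference is not a result.

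The response to Mix was called different between the arms for 0 of 307 lincRNAs and 0.0% of genes (limma interaction, 0 by voom), while 23 lincRNAs (7.49%) had an unadjusted p under 0.05, beside 250 genes in all (1.72%). The choice of members by their highest group mean can raise the first share. LINC02015, given below, was chosen through Control-siRNA+Mix alone, so the rule favoured the sign of its interaction. The lowest was AC092306.1, which had 5.97, 4.53 and 4.36 FPKM in PHGDH-siRNA+Mix, against 4.48, 5.55 and 4.15 FPKM in PHGDH-siRNA, and 6.48, 5.97 and 5.25 FPKM in Control-siRNA+Mix, against 2.50, 2.53 and 2.73 FPKM in Control-siRNA. The PHGDH-siRNA groups overlapped and the Control-siRNA groups did not, and the interaction was -0.89 (unadjusted p = 0.00083, adjusted p = 1.00). AC098487.1 had 0.674, 0.654 and 0.981 FPKM in PHGDH-siRNA+Mix, against 1.95, 1.42 and 1.57 FPKM in PHGDH-siRNA, and 1.85, 1.48 and 2.33 FPKM in Control-siRNA+Mix, against 1.23, 1.80 and 1.07 FPKM in Control-siRNA. It was called lower with Mix in PHGDH-siRNA cells (-0.58 ± 0.16, limma, adjusted p = 0.0449) and had 0.29 ± 0.16 in Control-siRNA cells (adjusted p = 0.332). The interaction was -0.87 for AC098487.1 and -1.10 for LINC02015, both with adjusted p = 1.00.

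Replicate 2 of PHGDH-siRNA+Mix and replicate 2 of PHGDH-siRNA stood apart from replicates 1 and 3 in part of the lincRNAs. In both, 18 lincRNAs lay more than 1 log2 unit from the mean of the other libraries in the same direction, 5 higher and 13 lower, which is 5.86%, beside 4.21% of all genes. Replicates 1 and 3 of these arms gave 3 and 0, and the Control-siRNA arms gave 0 for each replicate. PVT1, the lincRNA beside MYC, had 9.41, 1.37 and 8.34 FPKM in PHGDH-siRNA+Mix and 11.4, 1.54 and 8.38 FPKM in PHGDH-siRNA, and 8.67, 8.53 and 8.03 FPKM in Control-siRNA+Mix and 6.55, 9.55 and 9.31 FPKM in Control-siRNA. LINC00665 had 2.75, 0.0300 and 2.38 FPKM in PHGDH-siRNA+Mix and 3.11, 0.0362 and 2.81 FPKM in PHGDH-siRNA. In Control-siRNA+Mix it had 2.26, 1.87 and 1.89 FPKM, and in Control-siRNA 2.37, 2.63 and 2.29 FPKM. PVT1 and LINC00665 were thus lower in replicate 2 of each PHGDH-siRNA group than in any of the other 10 libraries. LINC02005, ARLNC1 and LINC01322 were next when ordered by the smaller of the 2 distances, which chose all 5, and lay 1.33 to 2.54 log2 units lower.

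The lincRNAs that were higher in those libraries were AC005392.2, AL390728.6, AC104986.2, MIR210HG and AL117379.1. AC005392.2 had 1.88, 11.7 and 2.34 FPKM in PHGDH-siRNA+Mix and 1.40, 7.45 and 0.356 FPKM in PHGDH-siRNA. Some nuclear and snoRNA-host RNAs also differed there. MALAT1 was 0.66 higher with Mix and 1.47 higher without, whereas SNHG8 was 1.22 and 0.84 lower and SNHG15 1.25 and 0.85 lower. SNHG18 went the other way, 0.82 and 1.23 higher, and SNHG4 and SNHG19 lay within 0.20 of the mean of replicates 1 and 3. The labels give no batch or date for these libraries, and what sets them apart was not tested.

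**Figure D5:**
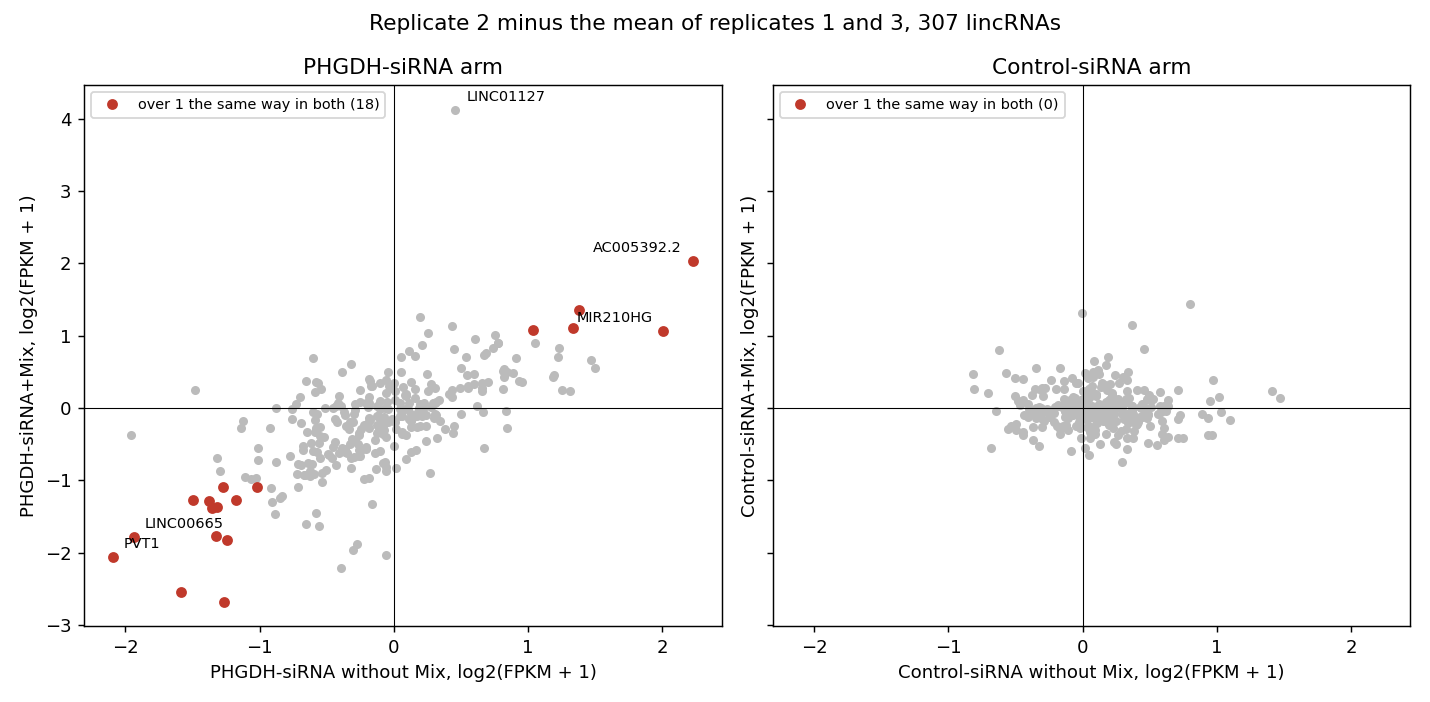
Replicate 2 minus the mean of replicates 1 and 3 on the log2(FPKM + 1) scale, for the group with Mix (vertical) and without (horizontal), 307 lincRNAs each, in the PHGDH-siRNA arm (left) and the Control-siRNA arm (right). The 18 lincRNAs over 1 unit the same way in both groups, in red, are all in the PHGDH-siRNA arm, with PVT1 at the lower left and AC005392.2 at the upper right.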

How the data were processed

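FPKM values per gene, made and deposited by the authors, were used for 12 libraries of HaCaT cells. RNAiso Plus served for extraction and NEBNext Ultra for library preparation, per the labels. The submitters' processing notes list featureCounts 1.5.0-p3, HISAT2 2.0.5, CASAVA and the hg38 build. Strand setting is not given in the sources used here. Reads recovered from FPKM and gene length were whole within 0.05 reads for 100% of values up to 200 reads. Member coordinates equalled GENCODE 29 for 307 of 307. The members, lists and named lincRNAs were chosen with earlier results of these data known.

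One limma 3.58.1 model (R 4.3.3, trend and robust, group means) was fitted to log2(FPKM + 1) of the 14577 genes whose highest group mean reached 0.5 FPKM, two-sided, with Benjamini-Hochberg adjustment over all genes and a threshold of 0.05. Such fold changes understate those of low genes. All 307 members passed this filter. Comparisons of 3 with 3 libraries cannot go below an exact p of 0.1.

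Named lincRNAs were the 12 highest, up to 8 called each way per comparison with no overlap, the 3 lowest interaction p-values, hosts and well-known RNAs, edge members, the nearest protein-coding genes and up to 5 each way in replicate 2. AC100858.3, AC078923.1, AC109588.1, LNCAROD and LINC01537 were named after their values were seen. Same-numbered libraries correlated in 5 of 18 pairs above 0.1 (-0.387 to 0.775), with 0.69, 0.775 and 0.459 within the PHGDH-siRNA arms, where the replicate block is therefore given. The fit was tested on simulated reads with the same dispersion for every gene and no link between libraries. That setting did not model the wide spread of these lincRNAs or the linked PHGDH-siRNA libraries. It therefore does not measure how the fit performs on them.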

Additional observations from a re-analysis of the deposited data

How the results depend on the processing

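The number of lincRNAs called with Mix varied between the alternatives. So did the share of all genes tested that the same fit called, given in brackets. In PHGDH-siRNA cells, 49 calls (8.86%) became 28 (2.34%) with no filter on low values and 14 (1.63%) with only the groups compared in the fit. They became 86 (27.1%) with the replicate block in the PHGDH-siRNA arms only and 76 (15.1%) when both PHGDH-siRNA arms lost replicate 2. In Control-siRNA cells, 54 calls (9.54%) became 90 (18.1%) with only the groups compared and 94 (21.0%) when both PHGDH-siRNA arms lost replicate 2. With a replicate block over all 12 libraries the counts were 43 (8.15%) in PHGDH-siRNA cells and 52 (8.87%) in Control-siRNA cells. Leaving out 1 library at a time gave 28 (4.62%) without PHGDH-siRNA replicate 3 to 60 (11.3%) without PHGDH-siRNA replicate 2 in PHGDH-siRNA cells. It gave 29 (5.12%) there without PHGDH-siRNA+Mix replicate 3. Control-siRNA cells had 36 without Control-siRNA+Mix replicate 1 (4.86%) or 3 (4.47%), up to 70 without replicate 2 of PHGDH-siRNA (11.9%) or of PHGDH-siRNA+Mix (12.2%). A pseudocount of 0.1, median-ratio scaling, voom and a fit without trend each gave counts within 1.5 times. The comparisons of PHGDH siRNA stayed at 0 in these fits, except for 2 (0.309%) with Mix and 1 (0.707%) without Mix when both PHGDH-siRNA arms lost replicate 2. A level of 0.5 FPKM in place of 1 would give 580 lincRNAs, and a level of 2 would give 166. Of 40 calls of single named lincRNAs, 23 held in every alternative and none changed sign. AL365356.3 was not called in 10 of 21 alternatives, LINC02031 in 4, AL596094.1 in 2, and AL158209.1 and FLJ22447 in 1, all in PHGDH-siRNA cells, and the cause of the changes was not tested. The replicate block in the PHGDH-siRNA arms added 8 calls of named lincRNAs there. The median lincRNA had 31 reads per library, and the size of change detectable at that depth was not measured.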
